A study of Homo sapiens with 6 samples.

Results

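The chemokine-like factor MARVEL transmembrane domain (CMTM) genes CMTM3, CMTM4, CMTM6, CMTM7 and CMTM8 and CD274, which encodes PD-L1, were examined in Hep-G2 cells carrying a hairpin against CLGN. These 6 genes were picked out of the 58735 rows of a gene expression table by name. They were chosen on their sh-CLGN against sh-NC values, CMTM6 first among them, so their values in that contrast, and any count of calls among them, are a description that supports nothing. Hep-G2 is an established human liver cancer line, labelled here as hepatocytes from hepatocellular carcinoma. The 3 sh-NC libraries carried a non-targeting hairpin (genotype WT, treatment shcontrol) and the 3 sh-CLGN libraries a hairpin against CLGN (genotype CLGN knock down). CLGN encodes calmegin, a lectin chaperone of the endoplasmic reticulum. Both hairpins were delivered by lentivirus with puromycin selection, and all 6 libraries carried the same batch label, 0DAY. Each group rested on a single hairpin, so loss of CLGN and any other effect of that hairpin cannot be told apart. Nothing in the labels says that the libraries came from separate cultures, so the spread between them may be technical.

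CMTM proteins cross the membrane several times through a MARVEL domain, a fold found in proteins of vesicle traffic and tight junctions. CMTM6 binds PD-L1 at the cell surface and in recycling endosomes and keeps it from being sent to lysosomes, and CMTM4, its closest relative, can take over this role. PD-L1 binds the receptor PD-1 on T cells and dampens their response, and hepatocellular carcinoma is a tumour in which this checkpoint is a drug target. The effect of CMTM6 is on PD-L1 protein, and only RNA was measured here.

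Each library held between 14955816 and 16244639 reads assigned to genes. Expression is given as FPKM, the fragments of a gene scaled by its length and by library size. The lengths were those deposited, from 1174 bases for CMTM8 to 8117 bases for CMTM4 among the 6 genes. Whether they fit the transcripts expressed in Hep-G2 was not tested. The order, sums and shares of levels between genes depend on these lengths. CLGN itself was at 24.1, 21.0 and 26.1 FPKM in the sh-NC libraries and at 9.48, 8.88 and 8.60 FPKM in the sh-CLGN libraries. Its level was thus below every control library in all 3 sh-CLGN libraries. Hepatocyte markers summed to between 6537 and 6776 FPKM in the control libraries and to between 6617 and 7038 FPKM in the others. Within that sum ALB was lower by 0.90 and AFP higher by 0.50 on the log2 scale, and of the 6 markers 3 were lower and 2 higher in limma. Of 6 leukocyte markers, 4 had at most 3 reads in every library. All 6 together summed to 1.28 to 1.56 FPKM in the controls, against 0.517 to 0.780 FPKM after CLGN knockdown. Most of this sum was CD14 alone, at 1.18, 1.45 and 1.40 FPKM in the controls, against 0.531, 0.647 and 0.394 FPKM after CLGN knockdown. The 6 fibroblast markers summed to between 6.70 and 8.19 FPKM in the controls, against 47.4 to 49.0 FPKM after CLGN knockdown. Most of this rise was COL1A2 alone, at 3.89, 4.85 and 3.86 FPKM in the controls, against 38.3, 38.3 and 39.4 FPKM. The mean of PDGFRB went from 2.12 to 2.76 FPKM, while DCN stayed at 1 read or fewer. Mitochondrial genes took 3.25% to 4.02% of reads in the controls and 5.49% to 5.80% after CLGN knockdown. The part of these differences in the results was not tested. In bulk RNA, fewer cells expressing a gene and less RNA per cell cannot be told apart.

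The hairpin's target and the matching stretches of the CMTM6 transcript are shown because CMTM6 had the lowest log2 difference of the 6 genes and its 3′ untranslated region (UTR) held letters that match the guide. Capitals mark the match to positions 2 to 8 of the guide in the target and the first site, and to positions 1 to 7 in the second site. Positions count from 1 at the 5′ end of the guide, which was taken as the reverse complement of the 19-base target. The start of the guide in the cells was not measured. All were read from GENCODE 29 transcripts on GRCh38.
CLGN target, chr4:140392328-140392346, minus strand: cgacatatgtaTACCACAa
CMTM6 3′ UTR, first site, chr3:32483194-32483212, minus strand: gaagaaactgaTACCACAc
CMTM6 3′ UTR, second site, chr3:32483795-32483813, minus strand: attgtgtcagtcACCACAA
The base before the capitals in the first site is the same as in the target, so that this match ran over positions 2 to 9. Outside these runs the likeness was low. The first site shared 11 of 19 bases with the target and the second shared 7 of 19. The target itself was found in 2 CLGN transcripts.

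CMTM6 (ENSG00000091317; chromosome 3, 32481312 to 32503408, minus strand, GRCh38), the PD-L1 partner, was at 59.1, 60.8 and 67.2 FPKM in the sh-NC libraries and at 11.7, 13.1 and 10.5 FPKM in the sh-CLGN libraries. The groups were far apart, with no sh-CLGN library near any control. The mean went from 62.4 ± 4.28 to 11.8 ± 1.29 FPKM (SD, n = 3), or to 18.9% of its value in the controls. The log2 difference, taken on log2(FPKM + 1) as sh-CLGN minus sh-NC, was -2.31 (SE 0.083). Of the 13074 genes that reached 1 FPKM in 3 or more libraries, only 6 had a lower log2 difference, CMTM6 being at rank 7 from the bottom. The value rested on 3639, 3919 and 4591 reads in the controls and on 878, 947 and 749 reads in the sh-CLGN libraries.

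CMTM4 (ENSG00000183723; chromosome 16, 66614750 to 66696707, minus strand), the relative that can also bind PD-L1, was at 7.71, 9.30 and 9.02 FPKM in the controls and at 3.04, 3.12 and 3.08 FPKM in sh-CLGN. The 3 sh-CLGN libraries were almost equal and all lay below the controls. The mean went from 8.68 ± 0.849 to 3.08 ± 0.0417 FPKM (SD, n = 3), 35.5% of its control mean, with a log2 difference of -1.24 (SE 0.075). Both genes that act on PD-L1 in this family were therefore at a lower RNA level in sh-CLGN. So were CMTM3 and CMTM7, and 39.0% of all genes tested were called lower in limma.

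CMTM3 (ENSG00000140931; chromosome 16, 66603874 to 66613892, plus strand) has been described as a brake on epidermal growth factor receptor signalling. It was at 26.6, 23.0 and 20.8 FPKM in the controls and at 11.3, 11.5 and 12.1 FPKM in sh-CLGN. No sh-CLGN library reached the lowest control. The mean went from 23.5 ± 2.97 to 11.6 ± 0.396 FPKM (SD, n = 3), with a log2 difference of -0.95 (SE 0.086). CMTM3 and CMTM4 face each other tail to tail, with 857 bases between their annotated ends.

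CMTM7 (ENSG00000153551; chromosome 3, 32391671 to 32483067, plus strand) is known from B cell receptor signalling. Its level was 12.8, 12.6 and 10.4 FPKM in the controls and 9.46, 9.86 and 9.82 FPKM in sh-CLGN. The groups did not overlap, but the third control library came close to the sh-CLGN libraries. The means were 11.9 ± 1.37 and 9.71 ± 0.220 FPKM (SD, n = 3), and the log2 difference was -0.27 (SE 0.081). The 3′ ends of CMTM7 and CMTM6 run into each other from opposite strands over 1756 bases. They share 324 exon bases, 7.34% of those of CMTM6 and 8.64% of those of CMTM7. Whether the authors counted by strand is not given in the sources used here, so reads of one gene could have been counted for the other and the value of CMTM7 in particular is uncertain.

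CMTM8 (ENSG00000170293; chromosome 3, 32238679 to 32370325, plus strand), which has been linked to internalisation of the epidermal growth factor receptor, stood apart from the others. It was at 31.6, 30.0 and 31.4 FPKM in the controls and at 29.8, 32.9 and 31.4 FPKM in sh-CLGN. The groups overlapped fully, and the log2 difference was 0.02 (SE 0.053). Its gene lies next to CMTM7 and CMTM6 on chromosome 3.

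CD274 (ENSG00000120217; chromosome 9, 5450503 to 5470566, plus strand) was at 0.209, 0.0834 and 0.299 FPKM in the controls and at 0.129, 0.163 and 0.121 FPKM in sh-CLGN. These values came from 12, 5 and 19 reads against 9, 11 and 8 reads, so the gene did not pass the expression filter. The sh-CLGN libraries lay inside the range of the controls. Summed over libraries, 36 reads stood against 28, a ratio of sh-CLGN to sh-NC of 0.692 per library size with an exact 95% interval from 0.407 to 1.17, which covers counting error only. Scaled by read totals, the ratio was 0.792, with an interval from 0.465 to 1.33. Both intervals cover a fall, no change and a rise, so the direction of PD-L1 RNA could not be told at this depth. The log2 difference was -0.07 on a scale that understates changes at such low values, and with a pseudocount of 0.1 it was -0.26.

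**Figure D1:**
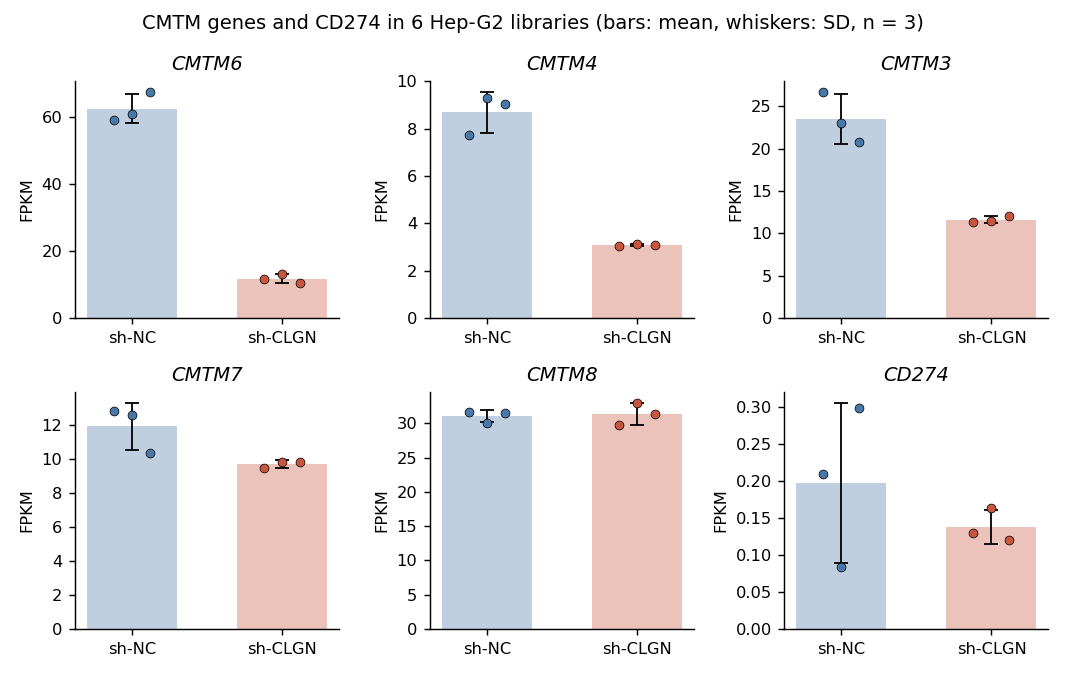
FPKM (vertical axes, from 0) of the 6 genes in the sh-NC and sh-CLGN groups, with points for the libraries, bars for the means and whiskers for the SD (n = 3). CMTM6, CMTM4, CMTM3 and CMTM7 have every sh-CLGN library below every sh-NC library, whereas CMTM8 and CD274 overlap, and the CD274 axis ends below 1 FPKM.

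Of the 6 genes, 5 passed the filter. Among these, 4 (CMTM3, CMTM4, CMTM6 and CMTM7) had all sh-CLGN libraries below all sh-NC libraries, a pattern held by 41.5% of the 13074 genes tested. The same 4 were lower at an adjusted p of at most 0.05 in limma, which was so for 39.0% of all genes tested, and 0 were higher, against 26.7% of all genes. CMTM4 and CMTM6 were also lower by at least 1 on the log2 scale, as were 3.19% of all genes. Since the genes were picked on this contrast, nothing is read from these counts. The median log2 difference over all tested genes was -0.08, and 5102 genes were lower and 3496 higher. With the libraries scaled by their read totals these became 3421 lower and 4956 higher, and the median became 0.08.

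The order of levels within the family changed with CMTM6. In sh-NC the order was CMTM6, CMTM8, CMTM3, CMTM7 and CMTM4 in all 3 libraries, and the ranges of neighbours in this order did not overlap. In sh-CLGN, CMTM8 came first in all 3 libraries. CMTM6 and CMTM3 followed with overlapping ranges, 10.5 to 13.1 FPKM for CMTM6 and 11.3 to 12.1 FPKM for CMTM3, so that their order could not be told. CMTM7 and CMTM4 remained below them.

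The 5 CMTM genes summed to 137.9, 135.7 and 138.8 FPKM in the sh-NC libraries and to 65.3, 70.5 and 66.9 FPKM in the sh-CLGN libraries. The sum in sh-CLGN was less than the level that CMTM6 and CMTM3 together had in sh-NC. CMTM6 made up 45.4% ± 2.83 of the sum in the controls and 17.4% ± 1.5 of it in sh-CLGN (SD, n = 3). CMTM8, with nearly the same FPKM in both groups, made up 22.6% ± 0.424 and 46.4% ± 0.718. The share of CMTM3 stayed near the same level, at 17.1% ± 2.18 and 17.2% ± 0.859.

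Ratios between genes of 1 library do not change when the whole library is scaled by 1 factor. Quantile normalization and GC correction can change them. The ratio of CMTM6 to CMTM4 was 7.67, 6.54 and 7.45 in the controls, against 3.86, 4.2 and 3.42 after CLGN knockdown. This ratio was thus lower in all 3 sh-CLGN libraries, where CMTM6 had lost a larger part of its RNA than CMTM4. The ratio of CMTM6 to CMTM8 was 2.01 ± 0.136 in the controls and 0.375 ± 0.0351 after CLGN knockdown (SD, n = 3). The ratio of CMTM6 to CLGN, the targeted gene, was 2.64 ± 0.227 and 1.31 ± 0.142, so that the loss of CMTM6 RNA was also larger than that of CLGN RNA.

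**Figure D2:**
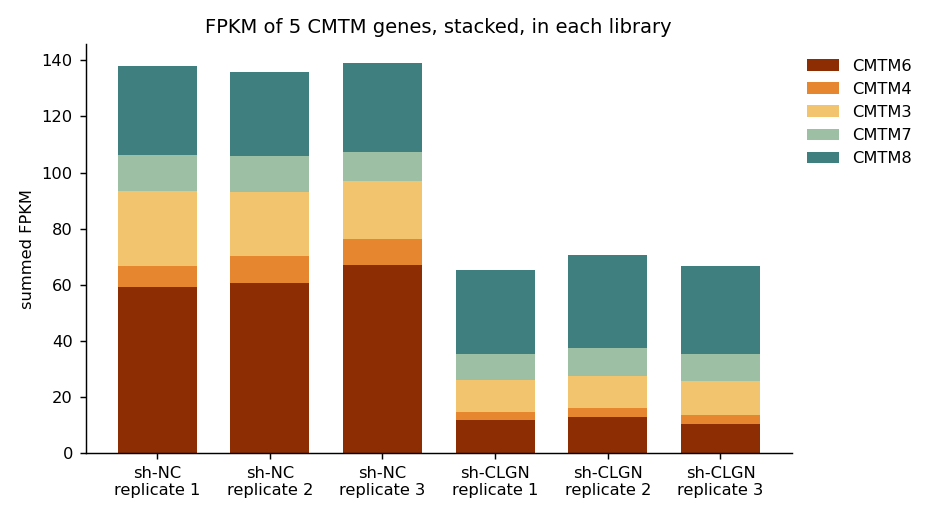
Stacked FPKM of the 5 CMTM genes (vertical axis, summed FPKM) in each of the 6 libraries. The sums lie between 135.7 and 138.8 for the controls and between 65.3 and 70.5 for the sh-CLGN libraries, and most of the gap is the CMTM6 segment, while the CMTM8 segment keeps its height.

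CMTM6, CMTM4 and CMTM3 were lower in all 15 alternative fits, which changed the pseudocount, filter, scaling, model or GC correction or left out 1 library. For CMTM6 the log2 difference ranged from -2.45 to -2.08 under the 9 processing choices, for CMTM4 from -1.49 to -1.08, and for CMTM3 from -1.0 to -0.71. For CMTM7 the log2 difference was negative in all 15 fits but small, from -0.36 to -0.09, and it was nearest to 0 with the GC correction and with read totals. For CMTM8 it ranged from -0.02 to 0.29, with its highest value under quantile normalization. The library sizes behind the FPKM values were 0.933 to 0.953 of the read totals for the controls and 1.07 to 1.08 of them for the sh-CLGN libraries.

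**Figure D3:**
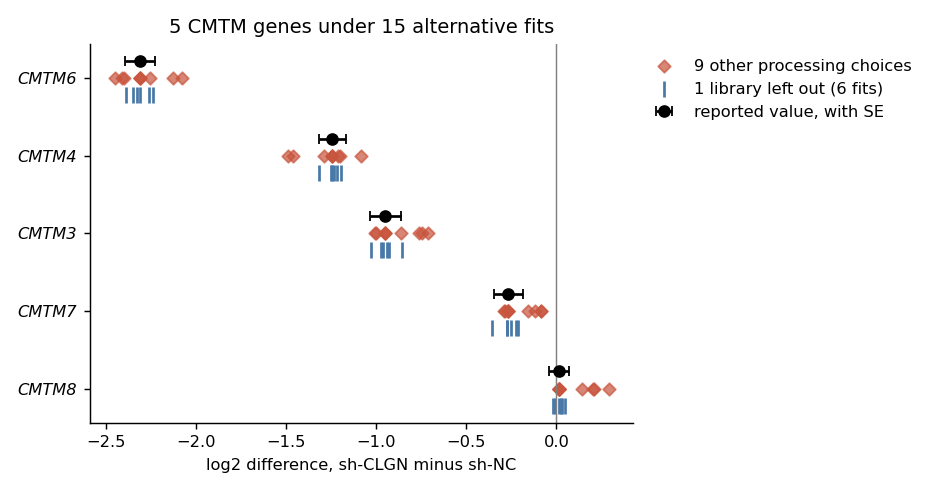
Log2 difference, sh-CLGN minus sh-NC (horizontal axis), of the 5 CMTM genes that passed the filter, with the reported value and its SE (black), 9 other processing choices (diamonds) and 6 fits that each leave out 1 library (ticks). CMTM6 stays between -2.45 and -2.08, CMTM4 and CMTM3 stay below 0 throughout, and CMTM7 and CMTM8 lie close to 0.

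The remaining genes of the family were at or near the limit of detection. CKLF, the founding chemokine-like factor, was at 1.05, 1.65 and 1.39 FPKM in the controls and at 1.22, 0.683 and 0.587 FPKM in sh-CLGN. CMTM1 was at 0.587, 1.12 and 1.46 FPKM and at 0.966, 0.541 and 1.52 FPKM. Both groups overlapped for either gene, and neither passed in limma (log2 difference -0.38, adjusted p = 0.0615 for CKLF, and -0.04, adjusted p = 0.887 for CMTM1). A readthrough transcript joins CKLF and CMTM1, so their reads cannot be fully assigned. CMTM2 had at most 3 reads in any library and CMTM5 had 0 in all 6. CKLF had 11 to 28 reads in a library and CMTM1 had 12 to 36.

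The 3′ UTRs of the other 5 genes held none of the 3 heptamers that match guide positions 1 to 7, 2 to 8 or 3 to 9, which were searched on the transcript strand and overlap each other. The heptamer for positions 1 to 7 reads ACCACAA. The one for positions 2 to 8, the seed match, reads TACCACA. A start of the guide 1 base further in would make positions 3 to 9 the seed, with the heptamer ATACCAC. The longest annotated UTR was 2704 bases in CD274, 2527 in CMTM4, 1387 in CMTM3, 1274 in CMTM7 and 358 in CMTM8, against 2648 in CMTM6. The nearer end of the first CMTM6 site, its 3′ end, lay 127 bases outside the overlap with CMTM7. Against the whole 19-base target, the fewest mismatches anywhere in the annotated transcripts were 7 in CMTM3, CMTM4, CMTM7 and CD274 and 8 in CMTM6 and CMTM8.

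Among 19216 genes with an annotated 3′ UTR of at least 50 bases, 13.2% held the match to positions 1 to 7, 11.6% that to positions 2 to 8, 8.56% that to positions 3 to 9, and 3.26% the joined match to positions 2 to 9. Of the 10909 such genes that were tested, 400 held the joined match, and their median log2 difference was -0.16 against -0.12 in the 8097 genes with none of the 3 heptamers. No test was made of this difference, which was wider in the lower tail. Past both thresholds, 5.75% of genes with the joined match were lower and 3.20% of genes with none of the heptamers. For the single heptamers this share was 5.96% at positions 3 to 9, 5.17% at positions 2 to 8 and 3.99% at positions 1 to 7. Their medians were -0.17, -0.12 and -0.11. The longer joined match was thus not lower than the match to positions 3 to 9 by either measure. A longer UTR is more likely to hold a heptamer, and the classes were not matched for UTR length or base content. The part of these in the gap was not tested. Of the 6 tested genes with a UTR and a lower log2 difference than CMTM6, 4 held none of the 3 heptamers, 2 held the match to positions 2 to 8, 2 held that to positions 1 to 7, and 0 held the match to positions 3 to 9 or the joined match. CMTM6 was chosen on this value, so its place among these genes is a description. A heptamer match is a description of letters. Whether the hairpin acted on CMTM6 RNA through these sites was not tested.

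**Figure D4:**
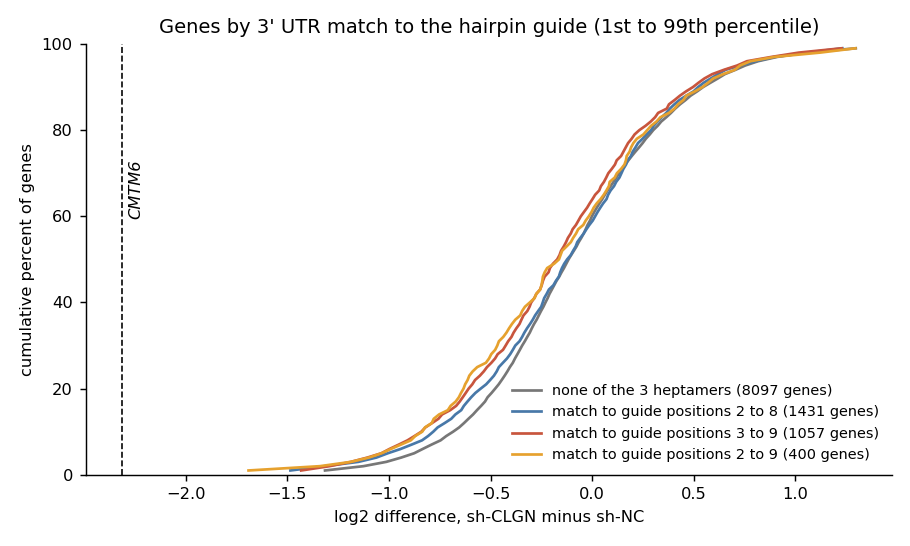
Cumulative percent of tested genes (vertical axis) against the log2 difference, sh-CLGN minus sh-NC (horizontal axis), by match of the 3′ UTR to the hairpin guide. The curves nearly meet at the right and part at the lower left, and CMTM6 (dashed line, -2.31) lies below the first percentile of every class. The classes are not matched for UTR length or base content.

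Protein-coding genes with both ends within 250 kb were examined next. Beside CMTM6 these were CMTM7, CMTM8 and DYNC1LI1, a light intermediate chain of the dynein motor. DYNC1LI1 was at 21.0, 22.1 and 23.9 FPKM in the controls and at 16.8, 16.8 and 16.4 FPKM in sh-CLGN, a log2 difference of -0.40 (SE 0.06, limma adjusted p = 0.000499). The neighbours of CMTM6 thus ranged from -0.40 to 0.02. Beside CD274, only PLGRKT, a plasminogen receptor, was tested, at 5.33, 5.51 and 6.36 FPKM against 5.37, 6.17 and 3.78 FPKM, and did not pass (limma adjusted p = 0.358). PDCD1LG2, the gene of the second PD-1 ligand, and the relaxin gene RLN1 had 0 reads in all libraries, RLN2 had at most 6 and INSL4 at most 10.

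The genes most like each member over the 6 libraries were named by Pearson's r of log2(FPKM + 1), as a likeness with no p. For CMTM6 these were ORC6, MEX3C and NIPA2, for CMTM4 they were RBSN, TBC1D20 and KLB, and for CMTM3 they were MRPL4, NIPSNAP1 and SLC5A6, with r of 0.999 or more in all 9. Such likeness was common, since 20.6% of tested genes had an r of at least 0.95 with CMTM6. All these pairs share the gap between the groups. CMTM7 was closest to GIPC1 (r = 0.996), MGRN1 and FBXL12, and 2.67% of genes reached 0.95. CMTM8 was closest to MFSD8 (r = 0.960), HIST3H2BB and NR4A2, and only 1 gene reached 0.95.

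Genes around CMTM6 and PD-L1 were read from 6 lists. Their tests come from the limma fit over all 13074 genes. The lists were written with earlier results of these data known, so their counts are a description. Of 11 tested genes with other MARVEL domains, 4 were lower and 1 was higher, with a median log2 difference of -0.20. Over all genes tested 39.0% were lower and 26.7% higher. MYADM, a myeloid differentiation marker of membrane rafts, fell from 16.4, 15.2 and 12.5 FPKM to 7.73, 7.75 and 8.95 FPKM (-0.78, limma adjusted p = 0.000284). SYP, the synaptic vesicle protein synaptophysin, fell by 0.73 and MAL2, which acts in transcytosis, fell by 0.31, whereas MARVELD1 rose by 0.34. SYP passed the expression filter only through the sh-NC libraries, where it was high. The call of MAL2 was lost with quantile normalization and with read totals. The MARVEL genes thus moved both ways.

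Some checkpoint ligands were expressed far above PD-L1 and others below it. Of the 20 genes in this list, PD-1 included, 11 were tested, of which 7 were lower and 2 higher, with a median of -0.53. These were 63.6% and 18.2% of those tested, against 39.0% and 26.7% over all genes. One of the lower genes, ICOSLG, passed the filter only through the sh-NC libraries. Another, TNFSF9, kept its call in only 8 of 15 alternative fits. CD276 (B7-H3) fell from 49.7, 50.2 and 44.9 FPKM to 21.0, 23.5 and 24.7 FPKM, a log2 difference of -1.04 (limma adjusted p = 1.36e-05). PVR, a ligand of TIGIT and CD226, fell from 76.4, 74.2 and 68.6 FPKM to 40.6, 42.3 and 41.7 FPKM (-0.80, limma adjusted p = 1.14e-05). The related NECTIN2 fell by 0.71 and TNFSF4, the OX40 ligand, fell by 0.90. CD58, the ligand of CD2 and another partner of CMTM6, rose from 2.65, 3.0 and 2.94 FPKM to 3.60, 3.66 and 4.06 FPKM (0.31, limma adjusted p = 0.00619). The directions of these 5 genes held in all 15 alternative fits.

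PDCD1, which encodes PD-1, had 0 reads in all 6 libraries. Of the 9 genes of this list under the filter, PDCD1 included, 5 (CD80, CD86, HHLA2, LGALS9 and TNFRSF14, named after their values were seen) had at least 10 reads in all, and in all 5 every sh-CLGN library was above every sh-NC library. That was also so for 32.6% of the 9013 genes under the filter with as many reads. HHLA2 reached the highest level of these, at 0.894, 0.992 and 0.768 FPKM in the sh-CLGN libraries and 0.277, 0.208 and 0.463 FPKM in sh-NC. More genes had a read in the sh-CLGN libraries (26814 to 27006) than in the sh-NC libraries (23578 to 23793), and the part of this in the low values was not tested.

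Regulators of CD274 transcription were all tested, and of 15 genes 9 were lower and 4 higher (median -0.40). That is 60% and 26.7%, against 39.0% and 26.7% over all genes. The kinase JAK1, which passes on the interferon signal, fell from 25.9, 29.2 and 28.2 FPKM to 11.7, 12.1 and 12.6 FPKM (-1.13, limma adjusted p = 4.38e-06). JAK2, its partner at the interferon gamma receptor, rose from 0.697, 0.944 and 1.07 FPKM to 1.74, 1.64 and 1.81 FPKM (0.52, limma adjusted p = 0.00218). The directions of these kinases were opposite, and JAK2 would not have passed the filter on its sh-NC libraries. The transcription factors JUN, NFKB1 and MYC fell by 0.99, 0.85 and 0.70. The joined match in the 3′ UTR was held by 3 of 79 tested list genes with a UTR, namely JAK1, MAL2 and ARIH1. Over all tested genes with a UTR the share was 3.67%, so nothing is read from this count.

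Of 18 tested genes that modify, stabilise or degrade PD-L1 protein, 11 were lower and 3 higher (median -0.37). That is 61.1% and 16.7%, against 39.0% and 26.7% over all genes. USP22, a deubiquitinase, fell from 99.9, 108 and 103 FPKM to 54.6, 58.4 and 61.0 FPKM (-0.83, limma adjusted p = 1.31e-05). Among genes that promote loss of PD-L1, MARCHF8, a membrane ubiquitin ligase, fell by 0.72, and HIP1R, which carries PD-L1 to lysosomes, fell by 0.71. The lower genes thus included both stabilising and degrading factors.

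Endosomal recycling genes, which act where CMTM6 meets PD-L1, moved both ways. Of 22 tested, 10 were lower and 6 higher, with a median of -0.08, equal to that of all genes. That is 45.5% and 27.3%, against 39.0% and 26.7% over all genes. The balance turned with the scaling, to 4 lower and 11 higher with quantile normalization, 4 and 9 with read totals, 6 and 8 with TPM, and 6 and 7 with the GC correction. RAB35, a GTPase of fast recycling, fell from 26.4, 22.4 and 23.6 FPKM to 11.9, 12.3 and 11.8 FPKM (-0.94, limma adjusted p = 1.33e-05), and ARF6 fell by 0.68. SNX27, the adaptor of retromer recycling, rose from 2.69, 2.91 and 2.96 FPKM to 5.09, 5.02 and 5.33 FPKM (0.67, limma adjusted p = 5.1e-05), and the early endosome GTPase RAB5A rose by 0.57. RAB11A, the GTPase of the recycling endosome, was higher by 0.26 (limma adjusted p = 0.00427), a call lost under the GC correction. None of the named list genes had as large a difference on log2(FPKM + 1) as CMTM6 or CMTM4. That scale understates changes at low values, and by FPKM SYP was at 34.0% of its control mean, against 35.5% for CMTM4.

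**Figure D5:**
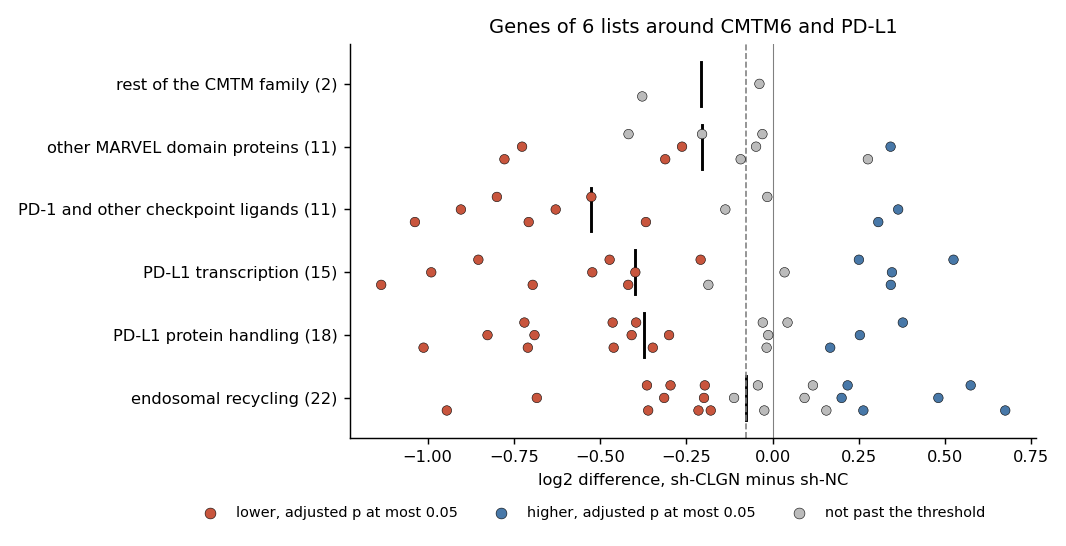
Log2 difference, sh-CLGN minus sh-NC (horizontal axis), of each tested gene in 6 lists (number tested in brackets), coloured by its limma call, with black bars for list medians and a dashed line for the median of all genes (-0.08). Every list except the rest of the CMTM family has genes called on both sides, and the lowest value is that of JAK1 at -1.13.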

How the data were processed

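Values in FPKM, 1 column for each library, came from a single table deposited by the authors. Their processing notes name HISAT2 2.0.5, featureCounts and GRCh38, without role or order, and the step to FPKM and strandedness are not given in the sources used here. FPKM times gene length gave whole reads within 0.01 for 100% of values. Gene positions matched GENCODE 29. The test was limma 3.58.1 in R 4.3.3 (eBayes with trend, two-sided, Benjamini-Hochberg over all genes tested) on log2(FPKM + 1), for genes reaching 1 FPKM in 3 or more libraries, with no covariate. It was tested on simulated data. The members, lists and rules were chosen with earlier results of these data known. Named were the 6 members, the 4 largest passing differences per list, all other CMTM genes, PDCD1, PDCD1LG2, JAK2, CD58, RAB11A, neighbours within 250 kb, the 3 most alike genes per member and CLGN. A gene that meets these rules is not reported here. MARCHF8 was matched by gene ID because its symbol had become a date. Libraries with the same replicate number did not deviate together, and the main fit did not treat them as pairs. Alternatives covered pseudocount, filter, scaling, model, replicate block, GC content and leaving out each library.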

Additional observations from a re-analysis of the deposited data

How the results depend on the processing

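CMTM6, CMTM4, CMTM3 and CMTM7 had a negative log2 difference in every alternative run. The balance of calls over all genes turned with read totals (3421 lower, 4956 higher) and TPM scaling (3923 lower, 4285 higher). The CMTM6 log2 difference was -2.45 with the GC trend removed, -2.08 with quantile normalization and -2.13 with read totals, and -2.39 to -2.24 leaving out each library. CD274 was at -0.26 with a pseudocount of 0.1 and between -0.14 and -0.01 leaving out each library. The members called lower numbered 4 or 3, CMTM7 being the one lost with read totals, TPM, quantile normalization, GC correction or no filter, and without sh-NC replicate 1, sh-NC replicate 2 or sh-CLGN replicate 1. CMTM8 became 1 member called higher with GC correction, quantile normalization and read totals. Genes lower past both thresholds numbered 417, against 241 with the GC trend removed, 681 with a pseudocount of 0.1, 235 with read totals, 733 with voom on recovered reads, and 398 to 466 leaving out each library. Endosomal recycling had 6 lower genes with GC correction and TPM scaling, 4 with quantile normalization and read totals, and 11 higher with quantile normalization. Other MARVEL genes numbered 2 higher with GC correction and 2 lower with read totals. Checkpoint ligands had 1 higher gene with GC correction and 5 with no filter. CKLF became 1 lower gene in the rest of the CMTM family with quantile normalization, and the count was 0 to 1 leaving out each library, being 1 without sh-NC replicate 1 or sh-CLGN replicate 1. Libraries with the same replicate number did not deviate together (correlations of deviations -0.02, -0.05 and -0.15), which cannot show whether the experiment was paired. With a replicate block 4757 genes were lower and 3281 higher, 4 members were lower and CMTM6 was at -2.31. Depth limits CD274, CKLF and CMTM1.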
